A study of Mus musculus with 12 samples.

Results

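The 10 genes described here, Cdkn1a, Btg2, Mdm2, Ccng1, Zmat3, Phlda3, Trp53inp1, Aen, Sesn1 and Sesn2, are well-known targets of the transcription factor p53 that act in cell cycle arrest, in feedback on p53 and in control of growth signalling. They were chosen by gene name from a table of 50600 genes, and each matched 1 gene identifier. RNA was sequenced in 12 libraries from tumours of B16F10 cells, a mouse melanoma line, placed under the skin of C57Bl/6 mice, 50000 cells per injection. The 4 groups of 3 libraries received drug vehicle, 25 mg/kg alisertib (an inhibitor of Aurora kinase A), 100 mg/kg navitoclax (an inhibitor of anti-apoptotic BCL2 family proteins), or both drugs at these doses, by daily oral gavage for 11 days. The comparisons ask what each drug, and the pair, does to RNA in the tumours. Every tumour came from the same injected line, the genotype is labelled wild, and no p53-deficient group was analysed here.

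p53 is held at low levels in unstressed cells because Mdm2, itself switched on by p53, marks p53 for destruction. DNA damage, errors of cell division and other stresses stabilise p53, which then binds paired half-sites in DNA and raises transcription of genes that stop the cell cycle, repair DNA or promote cell death. Aurora kinase A builds the mitotic spindle, and loss of p53 function is common in cancer, though less so in melanoma than in many other tumours.

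RefSeq promoter windows (GRCm38.p6) were matched by symbol for 8 of the 10 genes, with 11 annotated starts among them; Zmat3 and Trp53inp1 had no entry. The 250 bases before each start were searched on both strands for the canonical p53 half-site consensus. It was present in 5 of the 11 windows, in 5 genes, against 7.13% of 32851 windows of the same length over all genes. The 5 windows are shown 5′ to 3′ on the strand of the gene, with matches in capitals, to show where the matches lie. They cover chr17:29090729-29090978 (plus strand) for Cdkn1a, chr10:117710759-117711008 (minus) for Mdm2, chr11:40755287-40755536 (minus) for Ccng1, chr7:78895808-78896057 (plus) for Aen and chr10:41887189-41887438 (plus) for Sesn1.
Cdkn1a: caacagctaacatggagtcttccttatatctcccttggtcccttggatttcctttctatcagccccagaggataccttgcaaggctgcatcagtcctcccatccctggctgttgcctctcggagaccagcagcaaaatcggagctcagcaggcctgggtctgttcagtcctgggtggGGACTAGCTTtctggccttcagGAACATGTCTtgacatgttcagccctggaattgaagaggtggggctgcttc
Mdm2: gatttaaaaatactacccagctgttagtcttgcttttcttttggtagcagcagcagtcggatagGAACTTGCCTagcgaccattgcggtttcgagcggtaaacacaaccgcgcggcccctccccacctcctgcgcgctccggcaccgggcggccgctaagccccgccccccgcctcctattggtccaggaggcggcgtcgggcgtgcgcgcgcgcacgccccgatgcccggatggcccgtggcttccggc
Ccng1: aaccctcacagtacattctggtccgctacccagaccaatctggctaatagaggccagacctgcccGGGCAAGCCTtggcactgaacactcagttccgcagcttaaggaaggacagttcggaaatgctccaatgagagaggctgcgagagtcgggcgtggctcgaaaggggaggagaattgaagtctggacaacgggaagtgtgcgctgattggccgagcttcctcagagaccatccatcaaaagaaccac
Aen: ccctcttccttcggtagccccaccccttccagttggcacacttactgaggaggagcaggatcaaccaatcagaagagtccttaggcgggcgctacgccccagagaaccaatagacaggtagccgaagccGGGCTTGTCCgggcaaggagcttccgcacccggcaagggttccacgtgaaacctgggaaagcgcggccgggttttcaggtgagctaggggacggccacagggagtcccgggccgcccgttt
Sesn1: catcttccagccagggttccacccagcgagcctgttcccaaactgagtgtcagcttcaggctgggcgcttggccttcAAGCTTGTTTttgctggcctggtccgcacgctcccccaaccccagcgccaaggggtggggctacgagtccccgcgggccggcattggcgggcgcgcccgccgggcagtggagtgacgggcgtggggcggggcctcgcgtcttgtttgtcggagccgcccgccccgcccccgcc
The Cdkn1a window held 2 matches, GGACTAGCTT and GAACATGTCT, starting 73 and 51 bases before the start and separated by 12 bases. The bases that directly follow GAACATGTCT, tgacatgttc, were not a match. Which of these stretches form a paired site was not tested. A window with 2 or more matches occurred in 0.259% of windows over all genes. The single matches were GAACTTGCCT at 186 bases before the Mdm2 start, GGGCAAGCCT at 185 for Ccng1, GGGCTTGTCC at 121 for Aen and AAGCTTGTTT at 173 for Sesn1. The windows of Btg2, Phlda3 and Sesn2, and the other windows of Cdkn1a, Aen and Sesn1, held no match, which says only that these letters are not within 250 bases of that start. Protein binding was not measured, and whether p53 acts through any of these matches was not tested.

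Total reads per library ranged from 26.8 M to 36.7 M (M, mega, reads counted to genes). In vehicle 2 and combination 3 (libraries are numbered in accession order), 63.3% and 73.7% of the reads lay in 2 ribosomal RNA loci, Gm26917 and Gm42418, against 13.8% to 35.4% in the other 10 libraries. That left 9.86 M and 7.08 M other reads in those libraries, against 21.9 M to 27.6 M. Calls that change without these libraries, and the larger moves of differences, are given both ways. The lowest read count of any of the 10 genes was 172, for Sesn1 in combination 3 (95% exact Poisson interval 147 to 200, counting error only), so all 10 passed the filter on low values. The labelled cell type showed in all groups: the 8 melanocyte markers were all present in each library and summed to between 435432 and 688519. Summed macrophage markers (9 of 9 detected) were 1331 to 2841 with vehicle, 4933 to 11584 with alisertib, 3124 to 6673 with navitoclax and 6896 to 13174 with the combination. The fitted differences were positive in 9 of 9 in each arm, with medians of 1.78, 1.20 and 2.0 log2 with alisertib, navitoclax and the combination. With limma 1 of the 9 rose with alisertib, 0 with navitoclax and 2 with the combination. Over all genes tested 0.553% rose with alisertib and 1.38% with the combination. In the same order, 5, 4 and 7 had an unadjusted p under 0.05, edgeR called 1, 0 and 2, DESeq2 5, 1 and 7, and voom 3, 0 and 2. Red cell markers went the other way in the fitted differences, with 6 of 6 negative in each arm against vehicle and medians of −2.43 log2 with alisertib, −1.39 with navitoclax and −2.99 with the combination. None of the 6 passed with limma or edgeR (6, 0 and 6 had an unadjusted p under 0.05; DESeq2 called 3, 0 and 5, voom 0). Their sums were 4313 to 35497 with vehicle, 1398 to 5986 with alisertib, 1938 to 12438 with navitoclax and 958 to 2478 with the combination. Summed fibroblast markers were 113088 in vehicle 2 and 174921 in combination 3, against 7066 to 48876 in the other 10 libraries. Summed skeletal muscle markers were 84393 in navitoclax 1, against 89.3 in navitoclax 2 and 477 in navitoclax 3. They were at most 350 with vehicle, 614 with alisertib and 651 with the combination. Keratinocyte markers summed to 210 in combination 3 and to at most 6.55 in any other library. The part of these cell types in the results below was not tested. The neutrophil marker Ly6g was at 0 in all 12 libraries. In bulk tumour RNA, fewer cells of a type and less RNA per cell cannot be told apart.

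Values below are the deposited normalized values, and differences are limma differences of log2(value + 2) ± SE from a fit over 16993 genes with adjusted p (Benjamini-Hochberg over all of them, threshold 0.05). Whether the libraries of a group came from separate mice is not stated in the labels. The p-values therefore rest on library-to-library spread alone, and that spread may be technical.

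Cdkn1a encodes p21, which inhibits cyclin-dependent kinases and carries the arrest arm of the p53 response. Its normalized values were 3247, 4874 and 4802 with vehicle, 10974, 10260 and 10482 with alisertib, 2718, 4039 and 3706 with navitoclax, and 12511, 10509 and 14794 with the combination. The 6 libraries with alisertib lay far above the 6 without it, and the navitoclax libraries lay within or below the vehicle range. The gene (ENSMUSG00000023067.13, chr17:29090976-29100727, GRCm38, plus strand) shares 273 exon bases with AC167363.2 on the opposite strand, and the strand setting of the counting is not given in the sources used here. Over the 6 libraries with and the 6 without alisertib, Cdkn1a rose by 1.59 ± 0.14 log2 (limma, adjusted p = 0.000178).

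Btg2 (ENSMUSG00000020423.6, chr1:134075170-134079120, minus strand), encodes an antiproliferative protein that recruits the RNA deadenylation machinery. It measured 255, 444 and 480.1 with vehicle, 1283, 1026 and 1277 with alisertib, 241, 384 and 286 with navitoclax, and 1352, 1179 and 1729.8 with the combination. The lowest alisertib-containing library was above the highest of the others. With alisertib, alone or in the combination, Btg2 rose by 1.94 ± 0.18 log2 (limma, adjusted p = 0.000239).

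Mdm2 and Ccng1 form the feedback on p53: Mdm2 is the ubiquitin ligase that marks p53 for degradation, and cyclin G1, encoded by Ccng1, binds Mdm2 and a phosphatase that acts on it. Mdm2 (ENSMUSG00000020184.15, chr10:117688875-117710758, minus strand) measured 2589, 3626 and 2706 with vehicle, 5614, 5428 and 5288 with alisertib, 2532, 2449 and 2226 with navitoclax, and 5694, 5738 and 7582 with the combination. All 3 navitoclax libraries were below all 3 vehicle libraries, and all 3 combination libraries were above all 3 alisertib libraries. Neither difference passed (limma, adjusted p = 0.704 and 0.681), and 8.64% and 5.08% of all genes tested were separated in these ways. Over libraries with and without alisertib, Mdm2 rose by 1.14 ± 0.11 log2 (limma, adjusted p = 0.000266). Ccng1 (ENSMUSG00000020326.7, chr11:40748552-40755311, minus strand) measured 3441, 5077 and 4771 with vehicle, 12926, 12376 and 12785 with alisertib, 4326, 4971 and 4563 with navitoclax, and 13002, 12902 and 20150.2 with the combination. The highest of these, combination 3, stood apart from the other 5 libraries with alisertib, which lay within 12376 to 13002. Ccng1 rose by 1.62 ± 0.14 log2 with alisertib given (limma, adjusted p = 0.000124).

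Zmat3 encodes an RNA-binding zinc finger protein that acts on the stability and splicing of transcripts. It (ENSMUSG00000027663.12, chr3:32334792-32366014, minus strand) measured 3514, 3999 and 4759 with vehicle, 9722, 9033 and 10123 with alisertib, 4258, 4216 and 3876 with navitoclax, and 11133, 9907 and 11450.3 with the combination. The libraries with and without alisertib did not overlap, with vehicle 2 between its group mates and combination 3 the highest of all 12. The rise with alisertib given was 1.32 ± 0.09 log2 (limma, adjusted p = 5.53e-05), the lowest adjusted p of the 10 genes.

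**Figure D1:**
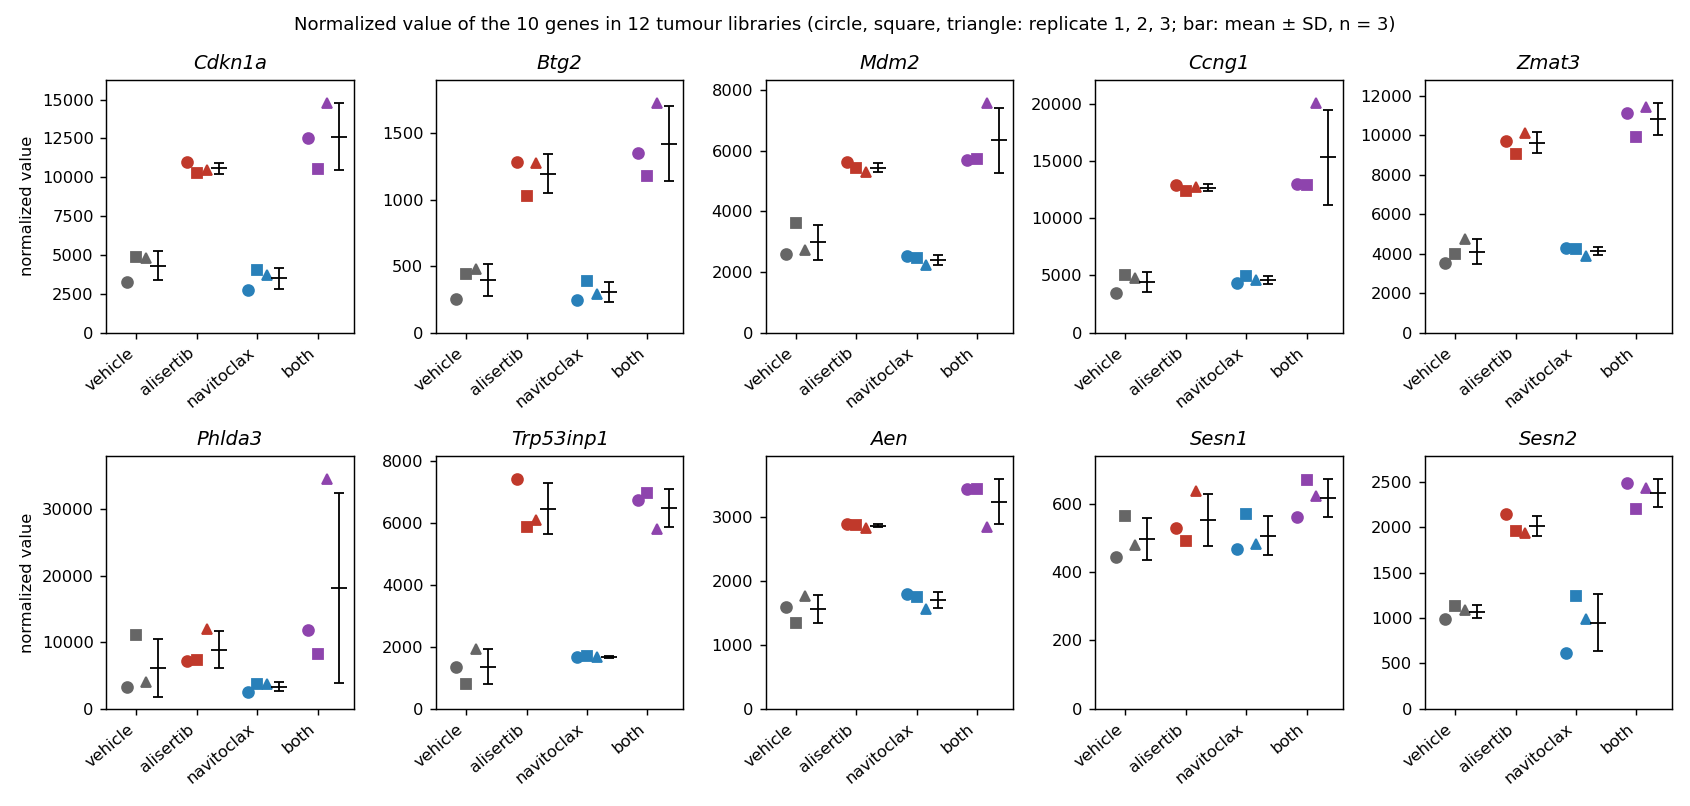
Normalized value (y axis, from 0, a scale of its own per gene) of each of the 10 genes in the 12 libraries by treatment; points are libraries and bars the mean ± SD of 3. Cdkn1a lies between 2718 and 4874 in the 6 libraries without alisertib and between 10260 and 14794 in the 6 with it, while Sesn1 overlaps in all groups and Phlda3 is highest in combination 3, at 34532.

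Trp53inp1 encodes a stress-induced protein that promotes p53 phosphorylation and takes part in autophagy. It (ENSMUSG00000028211.11, chr4:11156431-11174379, plus strand) measured 1369, 806 and 1924 with vehicle, 7431, 5893 and 6106 with alisertib, 1673, 1721 and 1669 with navitoclax, and 6742, 6975 and 5808 with the combination. Vehicle 2 was the lowest of all libraries and combination 3 the lowest of the 6 with alisertib. The rise with alisertib given was, over all 12 libraries, the largest fitted difference of the set, 2.13 ± 0.18 log2 (limma, adjusted p = 0.000112), and it was 2.0 (adjusted p = 1.02e-05) without vehicle 2 and combination 3.

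Aen encodes a nuclease that digests DNA during apoptosis. Its values (ENSMUSG00000030609.18, chr7:78895854-78911209, plus strand) were 1596, 1338 and 1771 with vehicle, 2887, 2886 and 2836 with alisertib, 1802, 1754 and 1571 with navitoclax, and 3449.8, 3449.5 and 2841 with the combination. No library with alisertib overlapped one without it, and vehicle 2 and combination 3 were the lowest of their groups. Aen rose by 0.90 ± 0.10 log2 with alisertib given (limma, adjusted p = 0.000439).

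Phlda3 encodes a small lipid-binding protein that competes with the kinase Akt at membranes and so holds back its survival signal. Its values (ENSMUSG00000041801.5, chr1:135766119-135769136, plus strand) were 3249, 11090 and 4016 with vehicle, 7264, 7328 and 12075 with alisertib, 2606, 3713 and 3724 with navitoclax, and 11799.8, 8261 and 34532 with the combination. The highest value of the vehicle group and that of the combination group were in the ribosomal RNA-rich libraries vehicle 2 and combination 3. Within the alisertib group the highest was in alisertib 3, whose share of 35.4% was the next largest. The ratio of Phlda3 to Zmat3 was 2.77 in vehicle 2 and 3.02 in combination 3, and 0.612 to 1.19 in the other 10 libraries. Over all 12 libraries the fitted difference with alisertib given, 1.45 log2 (95% interval 0.62 to 2.28), did not pass (limma, adjusted p = 0.0566). Without vehicle 2 and combination 3 it was 1.42 (adjusted p = 0.00296), and with the ribosomal share as a covariate 1.22 (adjusted p = 1.42e-05). Without vehicle 2 alone it was 1.72 (adjusted p = 0.0204), without combination 3 alone 1.15 (0.0606) and without combination 2 alone 1.66 (0.0337). DESeq2 gave 1.49 (adjusted p = 0.00313) and voom 1.39 (0.00174). Vehicle 2 and combination 3 were also the libraries with the highest summed fibroblast markers of all 12. The part of the ribosomal share and of fibroblasts in the Phlda3 values was not tested.

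**Figure D2:**
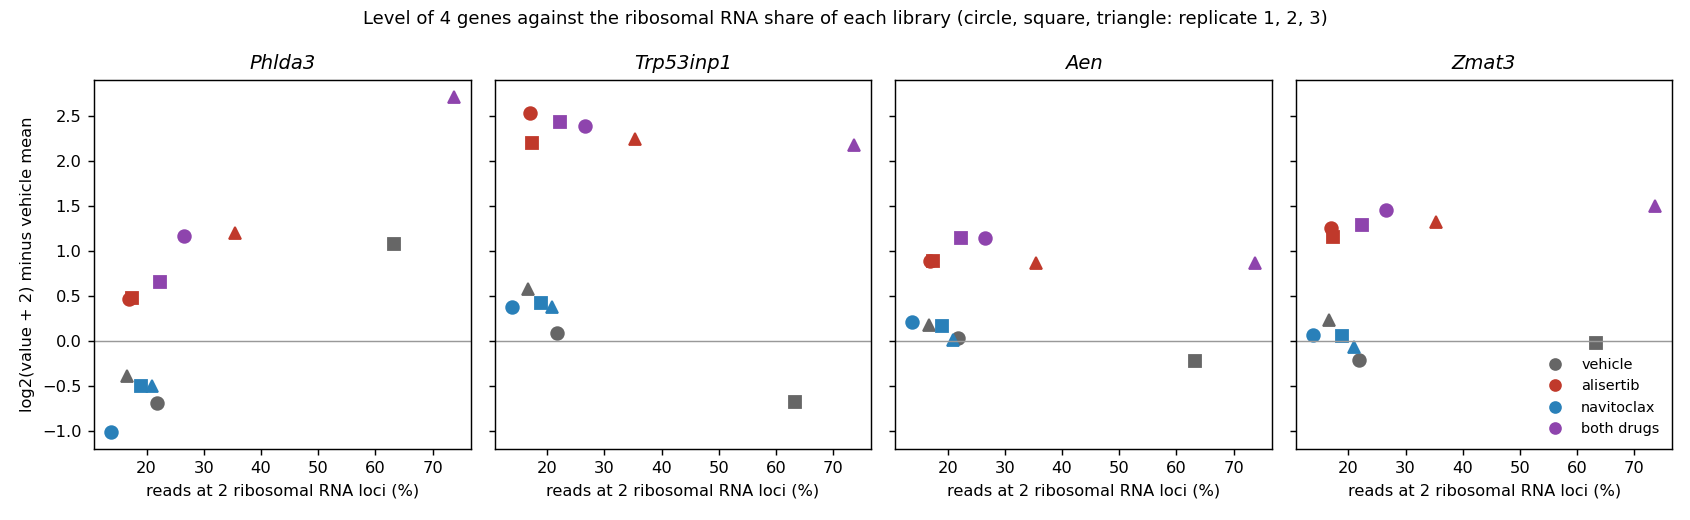
Level of Phlda3, Trp53inp1, Aen and Zmat3 as log2(value + 2) minus the vehicle mean (y axis) against the percent of reads at 2 ribosomal RNA loci (x axis); each point is 1 library, coloured by treatment. The libraries at 63.3% and 73.7% are vehicle 2 and combination 3: they stand high in their groups for Phlda3 and low for Trp53inp1 and Aen. For Zmat3 vehicle 2 lies between its group mates and combination 3 is the highest library.

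The sestrins Sesn1 and Sesn2 restrain mTORC1, the kinase complex that drives growth, and Sesn2 also senses leucine. Sesn2 (ENSMUSG00000028893.8, chr4:132492032-132510501, minus strand) measured 989, 1134 and 1089 with vehicle, 2142, 1953 and 1941 with alisertib, 619, 1243 and 989 with navitoclax, and 2491, 2201 and 2436 with the combination. Every library with alisertib was above every library without it, and every combination library was above every alisertib library. The difference of the combination from alisertib did not pass (limma, adjusted p = 0.682), and 5.08% of all genes tested were separated in this way. Sesn2 rose by 1.14 ± 0.15 log2 with alisertib given (limma, adjusted p = 0.00200). Sesn1 (ENSMUSG00000038332.13, chr10:41809935-41908424, plus strand) measured 445, 564 and 479 with vehicle, 530.2, 491 and 636 with alisertib, 466, 571 and 482 with navitoclax, and 560.2, 669 and 622 with the combination. Its 4 groups overlapped with each other, and the difference with alisertib given was 0.22 log2 (95% interval −0.03 to 0.47; limma, adjusted p = 0.332). The ratio of Sesn2 to Sesn1 was 2.17 ± 0.14 with vehicle, 3.69 ± 0.55 with alisertib, 1.85 ± 0.46 with navitoclax and 3.88 ± 0.58 with the combination (mean ± SD, n = 3).

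Levels are compared between the genes only per kilobase of exon. On that scale the vehicle means ran from Phlda3 (3924), Ccng1 (1261) and Cdkn1a (1212) through Mdm2 (585), Zmat3 (358), Sesn2 (308), Aen (270), Trp53inp1 (211) and Btg2 (143) to Sesn1 (125). Phlda3 per kilobase was 2084, 7114 and 2576 in the 3 vehicle libraries, and its mean was 2330 without vehicle 2. Over the 3 vehicle libraries the ranges of Ccng1 and Cdkn1a overlapped, as did those of each pair of neighbours from Zmat3 down to Sesn1. Phlda3 was above Ccng1, Cdkn1a above Mdm2 and Mdm2 above Zmat3 without overlap. Within a library, Cdkn1a stood in a ratio to Mdm2 of 1.46 ± 0.28 with vehicle and 1.46 ± 0.34 with navitoclax, and of 1.94 ± 0.05 with alisertib and 1.99 ± 0.19 with the combination (mean ± SD of normalized values, n = 3). The lowest ratio with alisertib given was 1.83 and the highest without it 1.77.

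Alisertib alone was compared with vehicle. Of the 10 genes, 7 rose, 0 fell and 3 (Phlda3, Sesn1, Sesn2) did not pass, where 0.553% of all genes tested rose and 0.318% fell. The median difference of the 10 was 1.08 log2, against 0.01 over all genes tested. The rises ran from Aen, 0.88 ± 0.14 (adjusted p = 0.0127), and Mdm2, 0.89 ± 0.16 (0.0270), through Zmat3, 1.24 ± 0.13 (0.00141), Cdkn1a, 1.32 ± 0.20 (0.0127), Ccng1, 1.54 ± 0.19 (0.00376), and Btg2, 1.65 ± 0.26 (0.0152), to Trp53inp1, 2.32 ± 0.25 (0.00141). Sesn2 differed by 0.91 (95% interval 0.45 to 1.37; adjusted p = 0.0854), Phlda3 by 0.72 (−0.46 to 1.89; 0.591) and Sesn1 by 0.15 (−0.20 to 0.51; 0.692). In 8 of the 10 genes all alisertib libraries were above all vehicle libraries, as in 10.7% of all genes tested. Phlda3 was at 1.26 without vehicle 2 (adjusted p = 0.446) and passed at 1.11 with the ribosomal share as a covariate (0.000993).

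How many of these 7 passed changed with single libraries, while the differences stayed positive. With 1 library left out, Trp53inp1 and Btg2 moved most, over 1.99 to 2.61 and 1.36 to 1.82 log2. Calls numbered 4 without vehicle 1, 3 without alisertib 1, 4 without alisertib 2 and 3 without alisertib 3, in fits that called 49 to 67 genes over the whole table, against 148. Ccng1, Zmat3 and Trp53inp1 passed under all 23 alternatives tried. Cdkn1a (1.13 to 1.34 log2; adjusted p of 0.0511 to 0.0765) and Aen (0.88 to 0.90; 0.0540 to 0.0765) were lost without each of those 4 libraries. Mdm2 (0.80 to 0.91; 0.0794 to 0.143) was lost without these and without vehicle 3, and Btg2 without alisertib 1 (1.59; 0.0945) or alisertib 3 (1.59; 0.0628). Sesn2 passed with the same difference of 0.91 when navitoclax 1 (adjusted p = 0.0115) or navitoclax 2 (0.0372) left the shared estimate of spread. With only the 6 libraries compared in the fit, Btg2, Mdm2 and Aen were lost (0.0539 to 0.0890) and Sesn2 passed (0.0420).

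Navitoclax alone was compared with vehicle. None of the 10 genes passed with limma, 0 of 10 had an unadjusted p under 0.05, and edgeR, DESeq2 and voom each called 0. Over all genes tested, 0% rose and 0.0647% fell. The differences had a median of −0.10 log2, 5 of 10 were positive, and adjusted p ran from 0.704 to 0.961. The widest, −0.67 for Phlda3 (95% interval −1.85 to 0.51), was −0.13 without vehicle 2 and combination 3. The intervals of Cdkn1a (−0.74 to 0.14), Btg2 (−0.91 to 0.23), Ccng1 (−0.35 to 0.50), Zmat3 (−0.27 to 0.31), Aen (−0.17 to 0.43), Sesn1 (−0.32 to 0.38) and Sesn2 (−0.69 to 0.23) all held 0. Those of Trp53inp1 (−0.16 to 0.94) and Mdm2 (−0.64 to 0.06) did too. Mdm2, at −0.29, was the 1 gene with all navitoclax libraries below all vehicle libraries, as in 8.64% of all genes tested. Without vehicle 2 its difference was −0.14, that of Cdkn1a −0.20, of Trp53inp1 0.06, of Aen 0.02 and of Ccng1 0.19, none of which passed.

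The combination against vehicle, which shares the vehicle libraries with both comparisons above, gave 8 genes that rose, 0 that fell and 2 that did not pass, where 1.38% of all genes tested rose and 1.15% fell. The median difference was 1.46 log2, against −0.01 over all genes tested. Differences were 1.05 ± 0.14 for Aen (adjusted p = 0.00259), 1.09 ± 0.16 for Mdm2 (0.00515), 1.15 ± 0.21 for Sesn2 (0.0180), 1.41 ± 0.13 for Zmat3 (0.000582) and 1.56 ± 0.20 for Cdkn1a (0.00282). Ccng1 followed with 1.78 ± 0.19 (0.00114), Btg2 with 1.88 ± 0.26 (0.00403) and Trp53inp1 with 2.33 ± 0.25 (0.00106). Phlda3 differed by 1.51 (95% interval 0.33 to 2.69; adjusted p = 0.170) and Sesn1 by 0.32 (−0.03 to 0.67; 0.346). Without vehicle 2 and combination 3, Phlda3 passed with 1.45 (adjusted p = 0.0365), while it was 2.05 (0.0735) without vehicle 2 alone and 0.91 (0.333) without combination 3 alone. The call of Sesn2 was lost without vehicle 1 (adjusted p = 0.0868) or combination 1 (0.0619). In 8 of the 10 genes the groups did not overlap, as in 9.73% of all genes tested. With only the 6 libraries compared in the fit, 3 genes passed (Zmat3, Trp53inp1 and Sesn2), and over all genes 66 in place of 431.

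**Figure D3:**
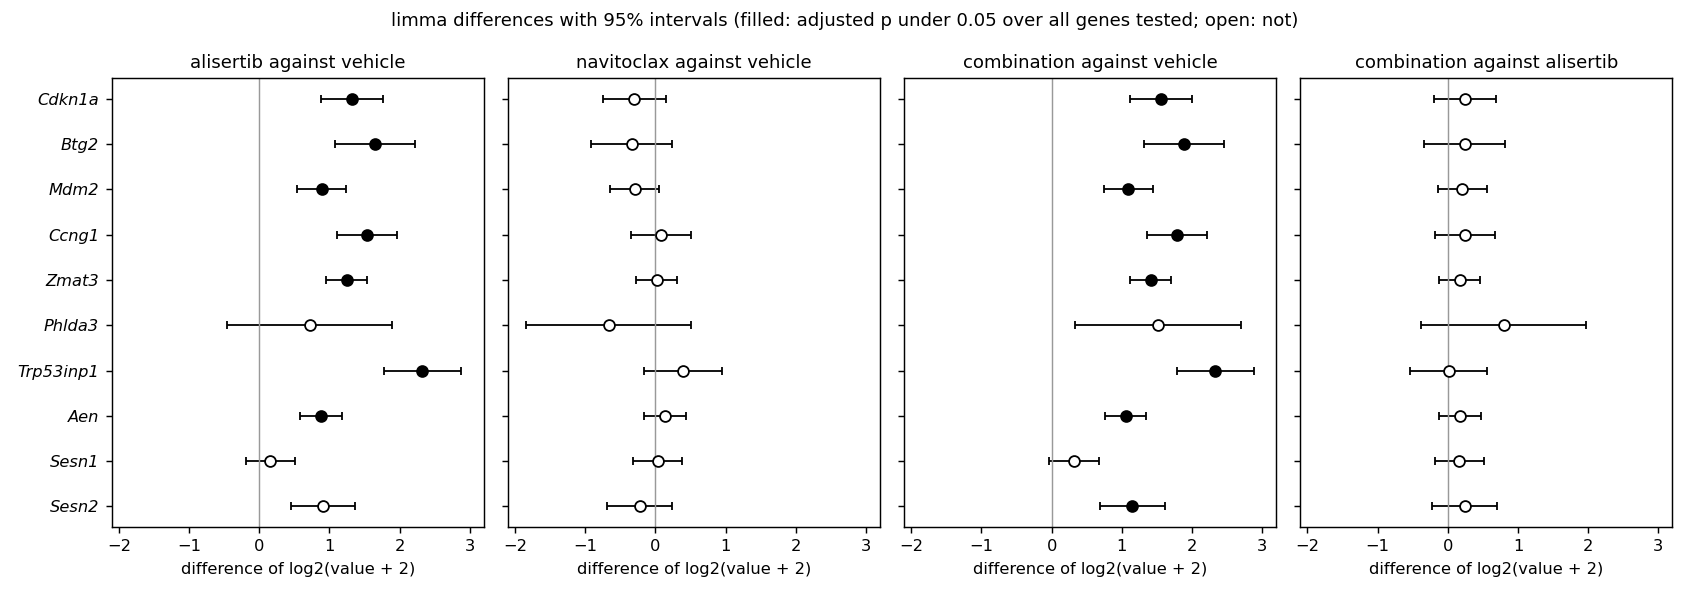
limma differences of log2(value + 2) with 95% intervals (x axis) for the 10 genes (y axis) in 4 comparisons; filled points passed an adjusted p of 0.05 and open points did not. With alisertib 7 are filled and with the combination 8, all to the right of 0, while with navitoclax, and for the combination against alisertib, all are open.

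Adding navitoclax to alisertib was compared directly. The fitted difference of the combination from alisertib was positive in all 10 genes, from 0.01 (Trp53inp1) to 0.80 log2 (Phlda3), with a median of 0.22 against −0.01 over all genes tested. None passed with limma (adjusted p of 0.681 to 0.989), none had an unadjusted p under 0.05, and edgeR, DESeq2 and voom called none, where 0% of all genes tested rose. The 95% interval for Cdkn1a was −0.20 to 0.68 around 0.24, for Ccng1 −0.18 to 0.67 around 0.24, for Zmat3 −0.12 to 0.46 around 0.17 and for Trp53inp1 −0.54 to 0.56. Mdm2 and Sesn2 were the 2 genes without overlap, as in 5.08% of all genes tested; their intervals were −0.14 to 0.56 and −0.22 to 0.70. Without combination 3 the 10 differences were still positive but had a median of 0.12, from 0.03 for Ccng1 to 0.27 for Aen. Cdkn1a was then at 0.12, Btg2 at 0.09, Mdm2 at 0.07 and Phlda3 at 0.19. The sign of Trp53inp1 was not settled: it turned negative, down to −0.05, in 4 of 23 alternatives.

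Adding alisertib to navitoclax gave 8 genes that rose, where 0.965% of all genes tested did and 0.224% fell, and 9 without overlap, as in 14.2%. The rises ran from 0.92 ± 0.14 log2 for Aen (adjusted p = 0.00939) to 2.22 ± 0.26 for Btg2 (0.00271), with Cdkn1a at 1.86 ± 0.20 (0.00157). Aen was lost without navitoclax 3 (0.0528) or combination 1 (0.0621), and Sesn2, at 1.38 ± 0.21 (0.0115), without combination 1 (0.0652). Phlda3, at 2.18 (95% interval 1.003 to 3.36; 0.0818), passed without vehicle 2 (0.0425), which is outside this comparison but in the shared fit, without combination 2 (2.61; 0.0460), and without vehicle 2 and combination 3 together (1.58; 0.0215). With only the 6 libraries compared in the fit, 3 genes passed (Btg2, Zmat3 and Trp53inp1).

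Over 6 libraries with against 6 without alisertib, 8 genes rose and 8 did not overlap, where 2.62% of all genes tested rose, 1.88% fell and 2.48% did not overlap upward. The same 8 passed under all 22 alternatives tried. The interaction asks whether the difference made by alisertib changed when navitoclax was present. It passed in none of the 10 with limma, edgeR, DESeq2 or voom, and 0.00588% of all genes tested passed upward with limma. An unadjusted p under 0.05 (limma) was found for 1449 of all 16993 genes tested and for 1 of the 10. That 1 gene was Mdm2, at 0.50 (95% interval 0.01 to 0.99; adjusted p = 0.436), and 0.21 without vehicle 2 and combination 3 (0.968). For the others the interaction ran from −0.38 for Trp53inp1 (−1.16 to 0.40) to 1.46 for Phlda3 (−0.20 to 3.13), which was 0.32 without vehicle 2 and combination 3. Without those libraries the interaction of Trp53inp1 was 0.03, of Ccng1 −0.16 in place of 0.16, of Cdkn1a 0.32 in place of 0.54 and of Btg2 0.31 in place of 0.58, and none of the 10 passed.

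The transcripts of p53 and of the proteins that act on it were measured beside its targets. Trp53 was 2167 ± 78.8 with vehicle, 2057 ± 187 with alisertib, 2350.0 ± 159 with navitoclax and 2101 ± 103 with the combination (mean ± SD, n = 3), and differed from vehicle by −0.08, 0.12 and −0.04 log2 (limma, adjusted p = 0.782, 0.726 and 0.899). Mdm4, the relative of Mdm2 that binds and silences p53, differed by 0.04, 0.01 and −0.15 (adjusted p = 0.957, 0.994 and 0.819). Of 12 tested genes of this list (14 in the table, with Trp63 and Trp73 below the filter), 0 passed against vehicle in any arm with limma or edgeR. DESeq2 called 1 and voom 4 with the combination, where they called 7.33% and 12.4% of all genes tested, and neither called any with 1 drug. Unadjusted p (limma) was under 0.05 for 1 with alisertib, 0 with navitoclax and 2 with the combination, against 2213, 1083 and 2875 of all 16993 genes tested. The smallest p values with the combination were those of the checkpoint kinase genes Chek2 (0.43 log2; adjusted p = 0.171) and Chek1 (−0.71; 0.247), the ubiquitin ligase gene Rfwd2 (−0.24; 0.354) and the phosphatase gene Ppm1d (0.48; 0.376).

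Of 31 tested genes among 32 other p53 targets, 13 rose and 0 fell with alisertib, 0 passed with navitoclax, and 13 rose and 0 fell with the combination. Over all genes tested 0.553% rose with alisertib and 1.38% with the combination. The median difference of the 31 was 0.70, 0.06 and 0.75 log2, against 0.01, 0.01 and −0.01 over all genes tested. With navitoclax 4 had an unadjusted p under 0.05, edgeR called 0, and DESeq2 and voom 1 each. In both directions together, edgeR called 0.842%, 0.0471% and 2.02% of all genes tested with alisertib, navitoclax and the combination. DESeq2 called 3.90%, 0.512% and 7.33%, and voom 7.30%, 0.224% and 12.4%, in the same order. Unadjusted p (limma) was under 0.05 for 2213, 1083 and 2875 of all 16993 genes tested. Counts of these kinds in the lists above and below are to be read against those values. Tnfrsf10b, which encodes a death receptor, went from 709 ± 139 to 1767 ± 76.7 with alisertib and 1959 ± 39.9 with the combination (1.48 ± 0.14 log2 with the combination; adjusted p = 0.000688). Pidd1, a scaffold that activates caspases, rose by 1.33 ± 0.20 with alisertib (0.0105) and 1.87 ± 0.20 with the combination (0.00101). Abhd4, a lipase, rose by 1.36 ± 0.14 (0.00133) and 1.40 ± 0.14 (0.000746), and Slc19a2, a thiamine transporter, by 1.47 ± 0.16 (0.00141) and 1.43 ± 0.16 (0.00118).

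Cell cycle genes that the p53 and p21 pathway is known to repress had negative differences in 21 of 24 genes with alisertib and 23 with the combination. With navitoclax 20 of the 24 were positive. Of the 24 tested, 0 passed with alisertib (limma; 11 with an unadjusted p under 0.05; edgeR 0, DESeq2 2, voom 8), 0 with navitoclax (3; 0, 0 and 0) and 0 with the combination (9; 0, 3 and 9), with medians of −0.38, 0.22 and −0.37 log2. Over libraries with and without alisertib, 9 fell and 0 rose, where 1.88% of all genes tested fell. Among them Mki67, a proliferation marker, fell by 0.63 ± 0.11 log2 (adjusted p = 0.0118), Mybl2, a cell cycle transcription factor, fell by 0.94 ± 0.17 (0.0112), Top2a, a topoisomerase, fell by 0.71 ± 0.14 (0.0206), and Cenpf, a centromere protein, fell by 0.61 ± 0.13 (0.0268). Mki67 itself was 10126 ± 950 with vehicle, 7081 ± 719 with alisertib, 10846 ± 1570 with navitoclax and 6494 ± 1028 with the combination.

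Among 9 cyclins, kinases and partners that p21 binds, 2 rose with the combination, both D-type cyclins: Ccnd1 by 0.97 ± 0.19 log2 (adjusted p = 0.0268) and Ccnd2 by 0.85 ± 0.17 (0.0271), where 1.38% of all genes tested rose. With alisertib they differed by 0.60 (0.213) and 0.75 (0.0768), and 0 of the 9 passed (2 with an unadjusted p under 0.05; edgeR 0, DESeq2 1, voom 2). With navitoclax 0 passed, also by edgeR, DESeq2 and voom, and 0 had an unadjusted p under 0.05. Cdk6 (0.39; 0.413) and Ccnd3 (0.54; 0.429) did not pass with the combination.

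The close relatives of the 10 genes were read beside them. Of 11 tested, 0 passed with either single drug (limma; 4 and 1 with an unadjusted p under 0.05; edgeR 0, DESeq2 1 and 0, voom 2 and 0), and 1 passed with the combination. That was Cdkn1b, which encodes the p21 relative p27 and fell by 0.62 ± 0.14 log2 (adjusted p = 0.0377), from 3816 ± 379 to 2471 ± 54.5, where 1.15% of all genes tested fell. Sesn3 differed by 0.64 with alisertib (0.133) and 0.58 with the combination (0.106), and passed at 0.48 ± 0.12 over libraries with and without alisertib (0.0493). Ccng2 differed by −0.15 and −0.25 (0.718 and 0.519), Btg1 by 0.10 and −0.32 (0.843 and 0.487), and Trp53inp2 by 0.51 and 0.61 (0.248 and 0.0926), with alisertib and the combination. Cdkn1c stayed low, at 12.8 ± 5.93 to 28.9 ± 9.53 per group.

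Sesn2 and Ppp1r15a are also known targets of ATF4, the transcription factor of the integrated stress response, so Atf4 itself and other genes of that response were read beside Sesn2. Of 12 tested, 2 fell with alisertib, 0 passed with navitoclax (6 with an unadjusted p under 0.05; edgeR, DESeq2 and voom 0) and 7 fell with the combination, where 0.318% and 1.15% of all genes tested fell with alisertib and the combination. Their medians were −1.13, −0.78 and −1.63 log2. Chac1, an enzyme that breaks down glutathione, was 685 ± 16.6 with vehicle and 83.8 ± 5.63 with alisertib (−3.0 ± 0.42; adjusted p = 0.00612), and 69.1 ± 8.11 with the combination (−3.28 ± 0.42; 0.00247). Trib3, a pseudokinase, fell by 2.74 ± 0.51 (0.0348) and by 3.45 ± 0.51 (0.00607). With the combination, Ppp1r15a fell by 1.65 ± 0.29 (0.0159) and Vldlr fell by 1.92 ± 0.35 (0.0190). Over libraries with and without alisertib, 9 of these 12 genes fell and 0 rose, where 1.88% of all genes tested fell. The part of ATF4 in the Sesn2 values was not tested. Btg2 is also known as an immediate early gene, and of 11 other such genes 1 passed against vehicle in any arm with limma. That was Atf3, also in the stress response list, which fell by 1.63 ± 0.37 with the combination (adjusted p = 0.0463), where 1.15% of all genes tested fell. With the combination 3 of the 11 had an unadjusted p under 0.05, and edgeR, DESeq2 and voom called 0, 2 and 1. With 1 drug 0 passed, 1 and 2 had an unadjusted p under 0.05 with alisertib and navitoclax, edgeR and voom called 0, and DESeq2 called 1 with alisertib.

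**Figure D4:**
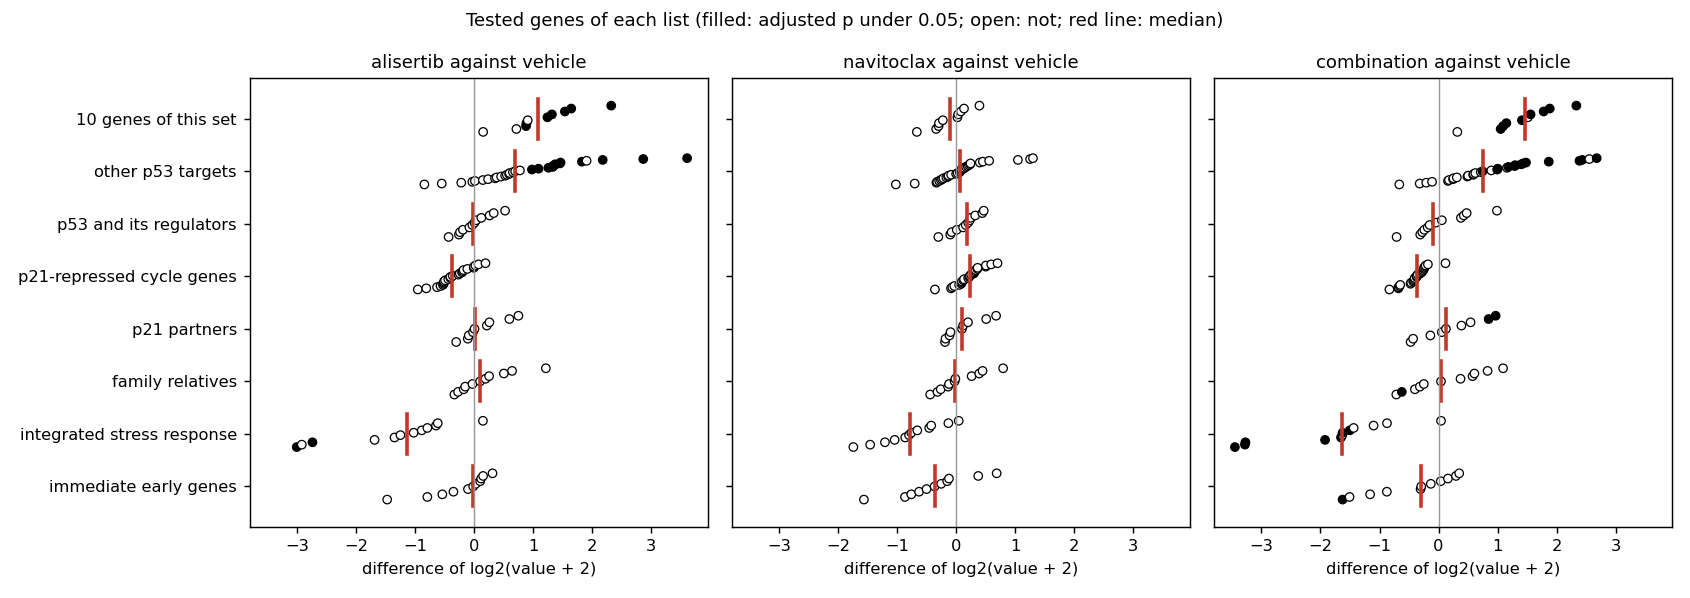
limma differences of log2(value + 2) from vehicle (x axis) of every tested gene in 8 lists (y axis) for the 3 treated groups; filled points passed an adjusted p of 0.05, open points did not, and red lines are medians. The 10 genes (median 1.08, −0.10 and 1.46) and the other p53 targets (0.70, 0.06 and 0.75) have medians to the right of 0 with alisertib and the combination, and the integrated stress response genes (−1.13, −0.78 and −1.63) to the left in all 3.

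A summary profile of the 10 genes was taken as the median, over them, of log2(value + 2) minus the vehicle mean in each of the 12 libraries. The root mean square difference from it was smallest, among 12612 genes with a mean value of at least 50, for Cpt1c at 0.119 log2, then, outside the 10, for Rbm38 (0.169), Dyrk3 (0.189), Ercc5 (0.192) and Gm13067 (0.192). Cpt1c averaged 1471 with vehicle, 2872 with alisertib, 1303 with navitoclax and 3947 with the combination. Of the 10 themselves, Zmat3 was nearest (0.124) and Phlda3 (0.633), Sesn1 (0.743) and Trp53inp1 (0.857) were farthest. These 3 ranked 602, 1305 and 2775 among the 12612 genes, so not all of the 10 followed the profile. Phlda3 was highest within the vehicle and combination groups in vehicle 2 and combination 3, Sesn1 changed little and Trp53inp1 changed more than the profile.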

How the data were processed

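RNA was measured in 12 tumour libraries, 3 per treatment. Per the labels' protocols, total RNA was depleted of ribosomal RNA and made into directional libraries; per the submitters' processing notes, the builds were mm10 and GRCm38.p4 and the tools DESeq2, featureCounts, HISAT2 2.0.6 and Subread 1.5.1, with no role or order given. The deposited values are a normalized signal per gene; the authors' values in each library were all (100%) whole multiples of 1 step within 0.001 reads, so reads were recovered by dividing by it. Groups come from the labelled treatment; libraries were numbered in accession order. The column of navitoclax 3 is named a little differently from its title but carries the same library code and treatment.

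In R 4.3.3, limma 3.58.1 (trended, robust) was fitted to log2(value + 2) of the 16993 genes that reached a value of 10 in 3 or more libraries, 1 mean per group. The added 2 understates changes of low genes. Alternatives were edgeR 4.0.16, DESeq2 1.42.0 and voom on recovered reads, other scalings, pseudocounts and filters, a ribosomal covariate, and leaving libraries out. The procedure was tested on simulated reads with the same relative spread set for every gene. That test does not cover the differences in ribosomal share between these libraries. No 2 replicates were duplicates (r from 0.934 to 0.985). Coordinates are GRCm38, GENCODE M21 (50376 of 50600 identifiers matched), and promoters are from RefSeq. The 10 genes and all lists were chosen with earlier results of these data known, so their directions are not independent evidence. Named genes were the 10, up to 4 per list with the smallest p in the combination, 6 relatives and regulators, and the 5 genes of nearest profile.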

Additional observations from a re-analysis of the deposited data

How the results depend on the processing

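Fits were repeated under 22 or 23 alternatives per comparison. The number of the 10 genes that passed with alisertib against vehicle was 7 and ranged from 3 to 8 when 1 library was left out. When the fit held no other groups than the compared pair it fell from 8 to 3 for the combination against vehicle and from 8 to 3 for the combination against navitoclax, where each fit had 6 libraries. It was 0 throughout for navitoclax against vehicle, the combination against alisertib and the interaction, and 8 or 9 for libraries with against without alisertib. No called difference of the 10 genes changed direction. No paired analysis was possible because the labels number no replicates.

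Counts over all genes moved more. Alisertib against vehicle called 148 genes, 663 with DESeq2, 1241 with voom, 1068 with the ribosomal covariate, 90 with only its groups, and 49 to 198 with 1 library left out. Navitoclax called 11 (0 to 87), the combination 431 (66 to 2561), the combination against navitoclax 202 (13 to 1628), libraries with against without alisertib 765 (314 to 3310) and the interaction 1 (0 to 8). The cause was not tested. With 3 libraries a group, the 95% interval of a comparison between groups reached 1.18 log2 to either side for Phlda3, the widest of the 10.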
